A study of Mus musculus with 12 samples.

Results

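Genes of the ATF4 arm of the integrated stress response were followed in mouse macrophages given red blood cells (RBC) or none: Atf4, Ddit3, Trib3, Nupr1, Sesn2, Chac1, Asns, Mthfd2, Psat1 and Phgdh. They make up 10 of the 19938 genes with a probe set of their own on the array. They were chosen by name as members of the pathway, and selected on earlier results of these data: differences on RBC exposure were known for Asns, Mthfd2, Nupr1, Trib3 and Sesn2, and differences of that response between the macrophage diets for Asns, Mthfd2 and Nupr1. Their differences between exposed and unexposed macrophages, and the difference in that response between the macrophage diets, are therefore given as a description without a test. Macrophage diet averaged over the RBC conditions and the diet of the RBC donors were tested.

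The macrophages were elicited with thioglycollate from the peritoneum of C57BL/6 mice that had started at 6 weeks of age on chow or high-fat food and stayed on it for 12 weeks. In culture they received no RBC, RBC of chow-fed mice or RBC of high-fat-fed mice. No other genotype or agent was used, and the 6 groups were therefore unexposed chow macrophages, chow macrophages with chow RBC, chow macrophages with high-fat RBC, and the same 3 for high-fat macrophages. Each group had 2 arrays, numbered in the labels as separate animals, so p-values measure the spread between samples so numbered. Values are log2 signals of Affymetrix Mouse Gene ST arrays, on which a difference of 1 is a 2-fold change, and differences are given ± SE from a limma fit to all 12 arrays. The array medians ran from 4.84 to 4.96.

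In the integrated stress response, kinases that sense heme shortage, amino acid shortage, misfolded protein in the endoplasmic reticulum or double-stranded RNA phosphorylate the initiation factor eIF2. General protein synthesis then slows while translation of the transcription factor ATF4 rises, and ATF4 with partners of the C/EBP family turns on genes for amino acid supply, redox balance and feedback on the response itself. Because ATF4 is controlled largely at translation, its transcript need not follow its activity. A macrophage that engulfs red cells takes in heme, iron and globin.

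ATF4 binds DNA with C/EBP proteins at composite elements commonly written TGATGNAA. RefSeq promoter windows (mouse build GRCm38.p6, 300 bases each, from 250 before the start to 50 after it) were found for all 10 genes, with a pair of windows for Psat1. The 8 letters TGATGNAA, read on both strands, occurred in 4 of the 11 windows, those of Asns, Nupr1, Chac1 and Trib3, and in 3.97% of all 32851 windows. The form TGATGCAA, which TGATGNAA includes, was in the windows of Nupr1 and Chac1 and in 0.89% of all windows. The form TGATGAAA, also included, was in that of Asns and in 1.02% of all windows. The cyclic AMP response element TGACGTCA, which does not overlap TGATGNAA, was in none of the 11 and in 1.79% of all windows. The stretches below are those of the 4 genes with a match. These stretches are shown because 3 of the genes, Asns, Nupr1 and Trib3, had among the widest differences between the groups. They read 5′ to 3′ on the gene's strand with the match in capitals. A match of letters is a description and not a binding site. Wide differences were not limited to genes with a match. The standard deviation over the arrays was 0.74 for Nupr1, 0.51 for Asns, 0.5 for Trib3 and 0.39 for Chac1. Without a match, Ddit3 (0.51) and Mthfd2 (0.48) varied about as much as Asns and Trib3. Sesn2, Atf4, Phgdh and Psat1, also without a match, varied less (0.2 to 0.31). A link between a match and the size of the differences was not tested. The stretches printed, which are parts of the windows, are Asns chr6:7693210-7693289 (minus strand, -80 to -1 from the start), Nupr1 chr7:126625537-126625616 (minus strand, -146 to -67), Chac1 chr2:119351013-119351092 (plus strand, -229 to -150) and Trib3 chr2:152344030-152344055 (minus strand, 6 to 31 past the start).
Asns: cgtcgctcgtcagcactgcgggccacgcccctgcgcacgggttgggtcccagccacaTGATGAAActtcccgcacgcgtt
Nupr1: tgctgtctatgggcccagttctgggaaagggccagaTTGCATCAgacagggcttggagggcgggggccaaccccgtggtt
Chac1: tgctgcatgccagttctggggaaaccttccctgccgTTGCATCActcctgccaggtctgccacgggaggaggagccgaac
Trib3: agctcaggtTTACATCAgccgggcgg

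The macrophage markers Cd68 and Lyz2 averaged 12.15 and 12.39 in the exposed and 12.13 and 12.37 in the unexposed groups, on a scale that ran from 1.46 to 13.33. Of the 7 macrophage markers measured, however, 3 changed on exposure averaged over the macrophage diets: Adgre1 fell by 0.32 ± 0.07 (adjusted p = 0.01), and Mertk and Fcgr1 rose by 0.43 ± 0.07 (adjusted p = 0.0017) and 0.55 ± 0.06 (adjusted p = 0.00011). In chow macrophages Adgre1 fell by 0.68 ± 0.09 and Csf1r by 0.41 ± 0.09 and Mertk rose by 0.66 ± 0.10, and in high-fat macrophages Fcgr1 rose by 0.84 ± 0.09. Some markers of cells that can accompany blood moved with exposure. The mean of 10 neutrophil markers lay between 4.99 and 5.26 on the unexposed arrays and between 5.98 and 6.37 on the exposed ones, with 6 of 10 higher and 0 lower in the test averaged over macrophage diets, where 5.23% of all genes were called higher. Among the neutrophil markers S100a9 rose most, by 5.76 ± 0.09. Ly6g (0.02), Camp (-0.15), Ltf (0.03) and Ngp (0.16) were not called. The mean of 8 platelet markers lay between 5.54 and 5.98 against 6.46 and 6.96, with 5 of 8 higher and 0 lower. Ppbp rose most of these, by 4.44 ± 0.18, while Pf4 (-0.06), Itga2b (0.26) and Treml1 (0.01) were not called. The mean of 7 B cell markers lay between 4.97 and 5.47 on the chow and between 4.56 and 4.72 on the high-fat macrophage arrays. On exposure 3 of these 7 fell in chow macrophages (Ms4a1 by 0.91 ± 0.12, Cd79b by 0.68 ± 0.11 and Cd79a by 0.64 ± 0.15), where most of the 10 genes were also lower. Of all genes 12.7% were called there in either direction. In high-fat macrophages 0 of the 7 were called (limma, 1 at an unadjusted p below 0.05), against 1.08% of all genes. Of 7 erythroid markers, 2 rose on exposure averaged over the macrophage diets, Alas2 by 1.09 ± 0.15 and Bpgm by 0.66 ± 0.08. The part of any of these markers in the results below was not tested. In bulk RNA, fewer cells of a type and less RNA per cell cannot be told apart.

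Among the regulators, the Atf4 transcript was highest in unexposed chow macrophages, at 10.19 and 10.15. With chow RBC it read 9.69 and 9.83 and with high-fat RBC 9.79 and 9.82. In high-fat macrophages it read 9.55 and 9.71 without RBC, 9.38 and 9.43 with chow RBC and 9.32 and 9.49 with high-fat RBC. The 4 exposed high-fat arrays lay below all other arrays, whereas the unexposed high-fat arrays overlapped the exposed chow arrays. Ddit3 encodes CHOP, a C/EBP-family factor induced by ATF4. It read 9.49 and 9.42 in unexposed chow macrophages, 9.42 and 9.28 with chow RBC and 9.31 and 9.29 with high-fat RBC. In high-fat macrophages the values were 8.66 and 8.51 without RBC, 8.38 and 8.42 with chow RBC and 8.32 and 8.25 with high-fat RBC. Ddit3 thus separated the macrophage diets on every array, with little difference among the chow groups.

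Trib3 encodes a pseudokinase that restrains ATF4 and CHOP in a feedback loop. In chow macrophages it read 7.19 and 7.26 without RBC, 6.60 and 6.44 with chow RBC and 6.41 and 6.33 with high-fat RBC. The high-fat macrophages gave 6.20 and 6.14, then 5.89 and 5.82, then 5.80 and 5.83 in the same order of RBC conditions. The unexposed chow arrays were above the exposed chow arrays, and those were above all 6 high-fat arrays. Nupr1 encodes a small stress-induced chromatin protein and had the widest spread of the 10 genes over the arrays. It stood at 8.86 and 8.81 in unexposed chow macrophages, at 7.53 and 7.58 with chow RBC and at 7.42 and 7.29 with high-fat RBC. High-fat macrophages read 7.15 and 7.03 without RBC, 6.84 and 6.65 with chow RBC and 6.81 and 6.77 with high-fat RBC. Unexposed chow, exposed chow, unexposed high-fat and exposed high-fat arrays followed each other downward without overlap.

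Sesn2 encodes sestrin 2, a leucine-binding inhibitor of mTORC1. It read 6.92 and 7.0 in unexposed chow macrophages, 6.36 and 6.21 with chow RBC and 6.42 and 6.29 with high-fat RBC. The high-fat macrophages gave 6.29 and 6.62 without RBC, 6.07 and 6.00 with chow RBC and 6.29 and 6.17 with high-fat RBC. The unexposed chow arrays lay above all others, and the unexposed high-fat pair was 0.33 apart. Chac1 encodes an enzyme that breaks down glutathione. Its unexposed chow pair read 6.00 and 6.51, against 5.15 and 5.61 with chow RBC and 5.60 and 5.5 with high-fat RBC. In high-fat macrophages Chac1 read 5.60 and 5.35 without RBC, 5.33 and 5.41 with chow RBC and 5.36 and 5.10 with high-fat RBC. Both unexposed chow arrays were above the other 10, but arrays of a group differed by up to 0.51.

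Asns encodes asparagine synthetase, a classical target of amino acid shortage. It read 8.85 and 8.81 in unexposed chow macrophages, 7.55 and 7.44 with chow RBC and 7.59 and 7.40 with high-fat RBC. In high-fat macrophages it was 7.69 and 7.82 without RBC, 7.55 and 7.48 with chow RBC and 7.51 and 7.52 with high-fat RBC. With RBC the 8 arrays of both macrophage diets shared a range of 7.40 to 7.59, below the unexposed arrays of either diet. Mthfd2 encodes a mitochondrial enzyme of the folate cycle. Its values were 7.90 and 7.73 in unexposed chow macrophages, 6.86 and 6.66 with chow RBC and 6.80 and 6.93 with high-fat RBC. High-fat macrophages read 7.05 and 6.96, then 6.63 and 6.66 with chow RBC and 6.28 and 6.44 with high-fat RBC. The unexposed arrays were highest within each macrophage diet, and the pair from high-fat macrophages given high-fat RBC was lowest.

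Psat1 and Phgdh encode enzymes of serine synthesis from glycolysis, and they did not share this order. Psat1 read 7.17 and 7.26 in unexposed chow macrophages, 7.07 and 7.05 with chow RBC and 7.05 and 7.0 with high-fat RBC. In high-fat macrophages Psat1 was 7.21 and 7.64 without RBC, 7.37 and 7.49 with chow RBC and 7.22 and 7.46 with high-fat RBC. Among exposed arrays those of high-fat macrophages were all higher, while the unexposed pairs overlapped. Phgdh read 5.58 and 6.17, 5.45 and 6.09, and 5.78 and 5.82 in chow macrophages with no, chow and high-fat RBC. The high-fat macrophages gave 6.05 and 6.35, 6.13 and 6.08, and 5.84 and 6.22. Its groups overlapped and pairs were up to 0.64 apart. A second Phgdh probe set, shared with Gm6756 and not used for the tests, ran from 5.80 to 6.37.

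**Figure D1:**
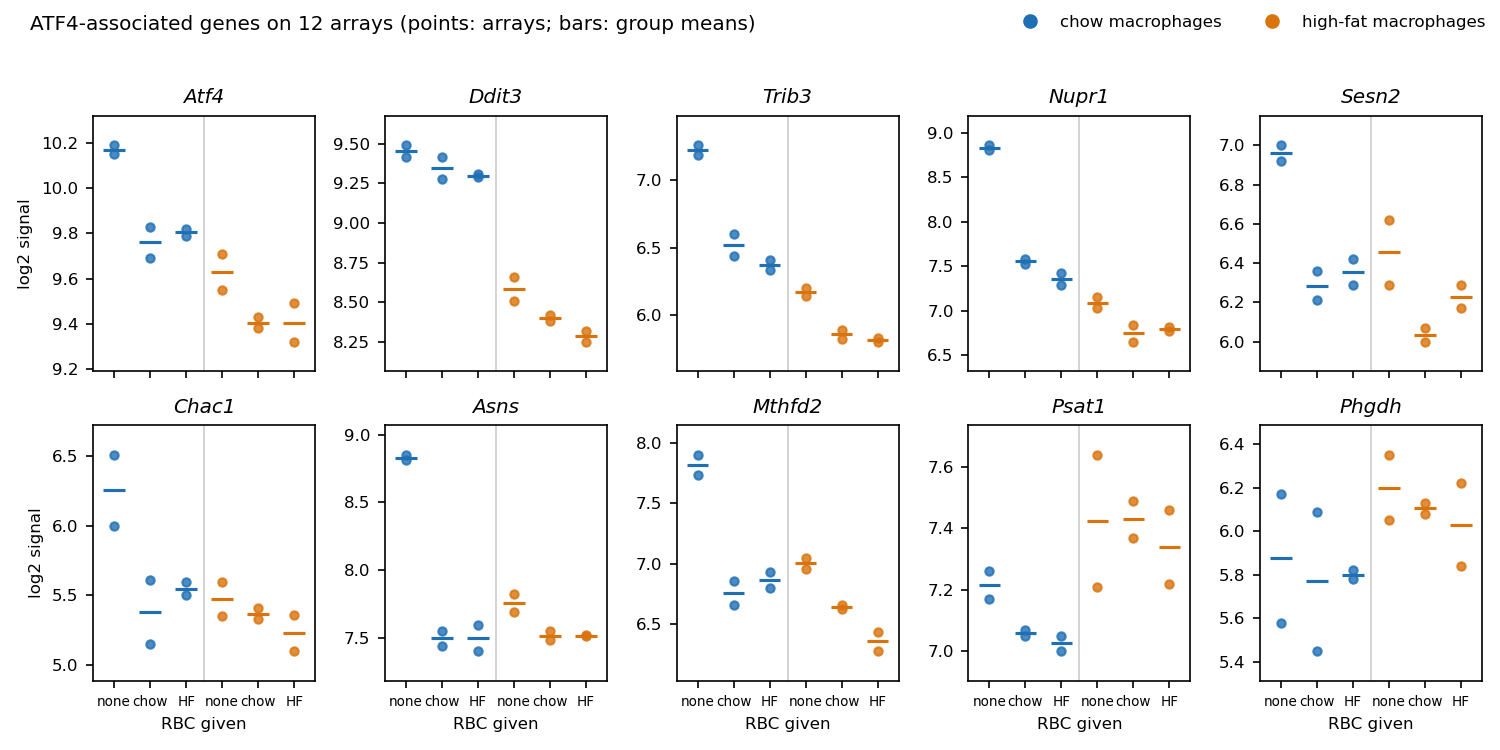
Log2 signal (vertical axes, each with its own scale) of the 10 genes on each of the 12 arrays, by RBC given (none, chow or high-fat, HF) in chow and high-fat macrophages; points are arrays and bars are means of 2. Atf4, Trib3, Nupr1, Sesn2, Chac1, Asns and Mthfd2 are highest in unexposed chow macrophages, Ddit3 splits by macrophage diet (9.28 to 9.49 against 8.25 to 8.66), and Psat1 and Phgdh show neither pattern.

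High-fat macrophages were compared with chow macrophages by the average over the 3 RBC conditions. The estimate of this average is uncorrelated with those of the exposure contrasts that made the genes known. It includes the unexposed arrays, however, which also entered those contrasts. A high level in unexposed chow macrophages alone therefore lowers it. The Asns gap, for one, was -1.07 without RBC and 0.02 with RBC. The tests also share each gene's estimate of the spread. The p-values and the count of calls are thus not independent of how the genes were chosen. In limma, 8 of the 10 genes were lower in high-fat macrophages at an adjusted p below 0.05, 1 was higher and 1 was not called. Over all 19938 genes 6.36% were called lower and 6.92% higher. The median difference of the 10 genes was -0.40, against 0 for all genes.

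Nupr1 fell most, by 1.04 ± 0.06 (2.06-fold lower, adjusted p = 2.4e-08). Ddit3 was lower by nearly as much, at -0.94 ± 0.06 (1.92-fold, adjusted p = 4e-08), and Trib3 at -0.76 ± 0.06 (1.69-fold, adjusted p = 3.7e-07). These 3 genes encode a chromatin protein, a transcription factor and its feedback inhibitor. The folate enzyme gene Mthfd2 differed by -0.48 ± 0.06 (adjusted p = 0.00012) and Atf4 itself by -0.43 ± 0.06 (adjusted p = 0.00017). Asns differed by -0.34 ± 0.06 (adjusted p = 0.00099), Sesn2 by -0.29 ± 0.07 (adjusted p = 0.0094) and Chac1 by -0.37 ± 0.10 (adjusted p = 0.024). In the other direction, Psat1 was 0.30 ± 0.08 higher in high-fat macrophages (adjusted p = 0.019). Phgdh gave the same 0.30 with a larger error, ± 0.12, and was not called (adjusted p = 0.14).

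The calls for Chac1 and Psat1 depended on single arrays. Chac1 was no longer called without any one of 6 arrays (adjusted p of 0.058 to 0.075), which were chow macrophages with chow RBC replicate 2, with high-fat RBC replicate 1 and unexposed replicate 2, and high-fat macrophages with chow RBC replicate 1, with high-fat RBC replicate 2 and unexposed replicate 2. Psat1 was no longer called without any one of 4 (0.055 to 0.059), which were chow macrophages with high-fat RBC replicate 2 and unexposed replicate 1, and high-fat macrophages with chow RBC replicate 2 and with high-fat RBC replicate 2. Phgdh was called, and the count of higher genes became 2, without chow macrophages with chow RBC replicate 2 (adjusted p = 0.035) or unexposed chow replicate 2 (0.046). The other 7 lower genes were called in all 12 omissions. Of 7 macrophage markers, 1 was higher and 3 were lower in high-fat macrophages, the lowest at -1.43. Of 7 B cell markers 1 was higher and 6 were lower, the lowest at -1.51. Of 10 neutrophil markers 0 were higher and 3 were lower (lowest -0.81), and of 8 platelet markers 0 and 1 (lowest -1.14). Of 7 erythroid and 8 mesothelial and fibroblast markers 1 each was higher and 0 were lower. Over all genes 6.92% were called higher and 6.36% lower. The part of these markers in the lower calls was not tested.

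The average joins gaps of unequal size. Without RBC the high-fat macrophages were lower by 1.75 ± 0.10 for Nupr1, which the exposed arrays showed at -0.69 ± 0.07. The Asns gap was -1.07 ± 0.10 without RBC and 0.02 ± 0.07 with RBC, a value that turned to -0.01 and -0.03 without replicate 2 of chow macrophages with chow or high-fat RBC. For Trib3 the gap was -1.05 ± 0.10 and -0.61 ± 0.07, and for Mthfd2 -0.81 ± 0.11 and -0.31 ± 0.08. For these 4 genes the unexposed cells had the larger gap. Ddit3 kept a similar gap, -0.87 ± 0.10 without and -0.98 ± 0.07 with RBC, and Atf4 gave -0.54 ± 0.10 and -0.38 ± 0.07. Sesn2 went from -0.50 ± 0.12 to -0.19 ± 0.08 and Chac1 from -0.78 ± 0.17 to -0.16 ± 0.12. Psat1 gave 0.21 ± 0.13 and 0.34 ± 0.09, the first of which was -0.01 without unexposed high-fat replicate 2, and Phgdh 0.33 ± 0.21 and 0.28 ± 0.15. The Chac1 gap with RBC was -0.28 and -0.05 without replicate 1 or 2 of chow macrophages with chow RBC, and the Phgdh gap without RBC was 0.03 and 0.62 without unexposed chow replicate 1 or 2. Among unexposed arrays 8 of the 10 genes were lower in high-fat macrophages without overlap, where 24.4% of all genes were. Among exposed arrays 4 were (Trib3, Nupr1, Ddit3 and Atf4), against 6.77% of all genes, and Psat1 was higher, against 6.52%.

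In macrophages given RBC of either kind, the 10 genes were lower than without RBC by a median of 0.71 in chow macrophages and 0.24 in high-fat macrophages, and averaged over both the median was -0.48 against -0.02 for all genes. These values describe genes that became known through them. In chow macrophages Nupr1 differed by -1.38 ± 0.09 (2.6-fold lower), Asns by -1.34 ± 0.09 (2.52-fold) and Mthfd2 by -1.0 ± 0.09 (2-fold). Chac1 was at -0.79 ± 0.15, Trib3 at -0.78 ± 0.08, Sesn2 at -0.64 ± 0.10 and Atf4 at -0.39 ± 0.09. The smallest differences were those of Psat1 (-0.18 ± 0.11), Ddit3 (-0.13 ± 0.08) and Phgdh (-0.08 ± 0.18). For 9 of the 10, all but Phgdh, all 4 exposed arrays were below both unexposed ones, as for 20.6% of all genes.

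In high-fat macrophages Mthfd2 differed most between exposed and unexposed arrays, by -0.50 ± 0.09, followed by Trib3 (-0.33 ± 0.08), Nupr1 (-0.32 ± 0.09) and Sesn2 (-0.32 ± 0.10). Ddit3 stood at -0.25 ± 0.08, Asns at -0.24 ± 0.09 and Atf4 at -0.23 ± 0.09. Chac1 (-0.17 ± 0.15), Phgdh (-0.13 ± 0.18) and Psat1 (-0.04 ± 0.11) lay within about 1 SE of 0. The other 7 genes had all 4 exposed arrays below both unexposed ones, as did 8% of all genes. For Sesn2 this rested on digits beyond those printed, as 1 exposed and 1 unexposed array both read 6.29. The sign of the Phgdh difference turned on leaving out single arrays in both macrophage diets, and that of Psat1 in high-fat macrophages. Without unexposed high-fat replicate 2, the value there was -0.16 for Sesn2 and -0.15 for Atf4. That of Chac1 was -0.05 without unexposed high-fat replicate 1 and -0.30 without replicate 2.

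The difference between these responses, high-fat minus chow macrophages, was positive where the response was smaller in high-fat macrophages. Its median over the 10 genes was 0.38, from -0.11 ± 0.12 for Ddit3 to 1.10 ± 0.12 for Asns. Nupr1 gave 1.06 ± 0.12, Chac1 0.62 ± 0.21, Mthfd2 0.50 ± 0.13 and Trib3 0.45 ± 0.12. The values of Sesn2 (0.32 ± 0.14), Atf4 (0.16 ± 0.12), Psat1 (0.13 ± 0.16) and Phgdh (-0.04 ± 0.26) were smaller. Asns and Nupr1 were among the genes known beforehand for this difference, so their large values follow in part from that choice. For Atf4 and Ddit3 the 2 macrophage diets responded within 0.16 of each other. Differences between genes were not tested. The omission of 1 unexposed array moved several of these values by over 1.5 times. Chac1 was at 0.36 without unexposed chow replicate 2. Without unexposed high-fat replicate 1, Sesn2 was at 0.15, Atf4 at 0.08 and Ddit3 at -0.04, and without replicate 2 Sesn2 was at 0.48, Atf4 at 0.24 and Ddit3 at -0.19. The sign of the values for Psat1 and Phgdh turned when single arrays were left out.

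**Figure D2:**
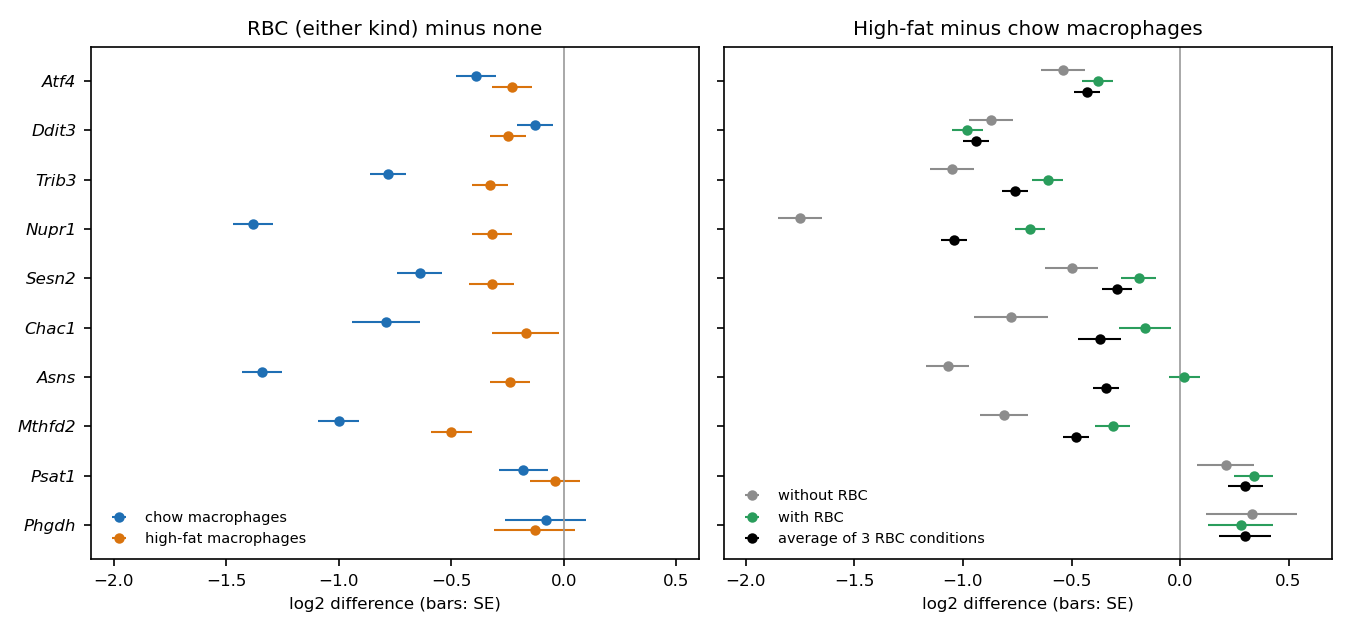
Log2 differences (horizontal axes) with SE bars for the 10 genes. The left panel gives RBC minus none in chow and in high-fat macrophages; the right panel gives high-fat minus chow macrophages without RBC, with RBC and averaged over the 3 RBC conditions. The left panel shows Asns at -1.34 in chow and -0.24 in high-fat macrophages; in the right panel Ddit3 keeps a gap near -0.94 and the Asns gap is 0.02 with RBC.

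Whether the diet of the RBC donor mattered was tested among the exposed arrays. Averaged over the macrophage diets, the differences between high-fat and chow RBC ran from -0.10 for Trib3 to 0.13 for Sesn2, and their 95% intervals lay between -0.34 and 0.31. None of the 10 genes was called in limma (0 of 10, with 0 at an unadjusted p below 0.05), and 0.01% of all genes were. In chow macrophages 0 of 10 were called, with 0 at an unadjusted p below 0.05, where 0% of all genes were. In high-fat macrophages 0 of 10 were called, with 1 at an unadjusted p below 0.05, where 0.0251% of all genes were. That gene was Mthfd2, whose values of 6.28 and 6.44 with high-fat RBC lay below 6.63 and 6.66 with chow RBC. It differed by -0.29 ± 0.11 (95% interval -0.52 to -0.05, limma adjusted p = 1). A difference of the RBC diet effect between the macrophage diets was called for none of the 10 (limma, 0 called, 1 at an unadjusted p below 0.05, where 0% of all genes were called). Its 95% intervals lay between -0.83 and 0.55. Mthfd2 was again the gene, at -0.39 ± 0.15 with an adjusted p of 1. The widest intervals were those of Phgdh. A call missed here does not show that RBC of both diets act alike, or that their effects are the same in both macrophage diets.

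The neighbouring genes of the pathway were read from 5 lists chosen with earlier results of these data known, of which 65 of 70 genes were measured. In chow macrophages RBC raised 4 and lowered 11 of the 65 (23.1%, against 12.7% of all genes called). In high-fat macrophages 1 rose and 2 fell (4.62%, against 1.08%). The response to RBC differed between the macrophage diets for 8, in 6 of them in the positive direction (12.3%, against 5.67%). High-fat macrophages differed from chow macrophages, averaged over the RBC conditions, in 11 higher and 13 lower genes (36.9%, against 13.3%). As the lists were chosen with earlier results known, these shares describe the lists and do not test them against all genes. For RBC diet 0 of the 65 were called in limma, averaged, within chow or within high-fat macrophages, with 3, 3 and 4 at an unadjusted p below 0.05.

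Amino acid transporters had the list median farthest from 0 on exposure in chow macrophages, -0.62 against -0.03 for all genes. There 6 of 9 fell, where 12.7% of all genes were called in either direction. In high-fat macrophages the list median was 0.01, closer to 0 than those of the other 4 lists (-0.06 to 0.09). The glycine transporter gene Slc6a9 fell by 0.82 ± 0.12, the neutral amino acid transporter gene Slc38a2 by 0.73 ± 0.09 and the cationic amino acid transporter gene Slc7a1 by 0.68 ± 0.10 (adjusted p of 0.00055, 9.9e-05 and 0.00047). Slc7a5, Slc1a5 and Slc7a11 were the others. In high-fat macrophages Slc38a2 fell by 0.49 ± 0.09 (adjusted p = 0.014), but not in a fit to the high-fat macrophage arrays alone (0.073), nor without replicate 2 of those with chow RBC (0.055) or unexposed replicate 1 (0.17). Averaged over RBC conditions, high-fat macrophages had 5 transporter genes lower and 1 higher, among them Slc7a11 at -0.87 ± 0.06 (adjusted p = 2.5e-07) and Slc3a2, the heavy chain shared by several transporters, at -0.46 ± 0.06 (adjusted p = 9.7e-05).

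Slc7a11, the cystine-glutamate exchanger that supplies glutathione synthesis, moved in opposite directions. In chow macrophages it read 9.81 and 9.92 without RBC, 9.05 and 9.14 with chow RBC and 9.21 and 9.15 with high-fat RBC. In high-fat macrophages it read 7.85 and 8.09 without RBC, 8.80 and 8.66 with chow RBC and 8.82 and 8.82 with high-fat RBC. The unexposed arrays were thus the highest in chow and the lowest in high-fat macrophages. RBC lowered it by 0.72 ± 0.09 in chow macrophages (adjusted p = 0.00014) and raised it by 0.80 ± 0.09 in high-fat macrophages (adjusted p = 0.00032). The difference between the responses was 1.53 ± 0.13 (adjusted p = 9.4e-06). It was called in all 12 omissions of an array, and none of the 10 ATF4-associated genes had a positive difference on exposure in high-fat macrophages.

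Among 14 kinases and eIF2 factors, RBC lowered the phosphatase subunit gene Ppp1r15a (GADD34, which restores translation) by 0.78 ± 0.13 in chow macrophages (adjusted p = 0.00091). The amino acid sensor gene Eif2ak4 (GCN2) rose by 0.41 ± 0.09 (adjusted p = 0.0075) but was not called without either unexposed chow array (0.059 and 0.066). Eif2b4 also rose, by 0.38 ± 0.10 (adjusted p = 0.022), but not after quantile normalization, nor without unexposed chow replicate 1 or replicate 1 of either exposed chow group. The heme-regulated kinase gene Eif2ak1, the double-stranded RNA sensor gene Eif2ak2 and the endoplasmic reticulum sensor gene Eif2ak3 (PERK) were not called on exposure in either macrophage diet, although Eif2ak2 was called in chow macrophages after quantile normalization (-0.41, adjusted p = 0.022) and without replicate 1 of those with chow RBC (-0.42, adjusted p = 0.022). In high-fat macrophages 0 of the 14 were called in limma, with 2 at an unadjusted p below 0.05, Eif2ak2 at 0.39 ± 0.11 (adjusted p = 0.18) and Eif2b2 at 0.27 ± 0.10 (adjusted p = 0.33). High-fat macrophages averaged over RBC conditions had Eif2ak3 higher by 0.35 ± 0.06 (adjusted p = 0.00086) and Eif2ak4 by 0.29 ± 0.06 (adjusted p = 0.004), and Ppp1r15a lower by 0.50 ± 0.08 (adjusted p = 0.00094). Eif2ak1 gave -0.08 (adjusted p = 0.59) and Eif2ak2 -0.23 (adjusted p = 0.059). That of Eif2ak2 was called under 4 other settings of the fit (adjusted p of 0.036 to 0.042) and without replicate 2 of chow macrophages with chow RBC (-0.30, 0.011) or of unexposed high-fat macrophages (-0.26, 0.049), and the omissions ranged from -0.30 to -0.17.

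Of 15 partners and stress effectors, 1 fell on exposure in chow macrophages and 0 were called in high-fat macrophages, with 3 at an unadjusted p below 0.05 there. Over all genes 12.7% and 1.08% were called in these contrasts. The gene that fell was Herpud1, which acts in degradation of endoplasmic reticulum proteins, at -0.46 ± 0.11 (adjusted p = 0.016), but not without replicate 1 of chow macrophages with high-fat RBC or unexposed chow replicate 2. The translation repressor gene Eif4ebp1 was next, at -0.31 ± 0.10 (adjusted p = 0.051), and passed the threshold under several alternatives. In high-fat macrophages Trib1 gave 0.47 ± 0.12 (adjusted p = 0.09) and Herpud1 0.45 ± 0.11 (adjusted p = 0.084). The Herpud1 value was 0.28 without unexposed high-fat replicate 1 and 0.62, then called, without replicate 2 (adjusted p = 0.022). The Herpud1 response differed between the macrophage diets by 0.91 ± 0.16 (adjusted p = 0.0034). High-fat macrophages were lower in the pseudokinase gene Trib1 by 0.82 ± 0.08 (adjusted p = 6.8e-06) and higher in Herpud1 by 0.49 ± 0.07 (adjusted p = 0.00039). A lower call for Cebpb, at -0.27 ± 0.07 (adjusted p = 0.025), was lost after quantile normalization and without any one of 8 arrays.

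Of 11 other enzymes of serine, one-carbon, proline and transamination metabolism, 2 rose with RBC in chow macrophages and 0 fell (all genes: 12.7% called). They were the aspartate aminotransferase gene Got1, by 0.61 ± 0.09 (adjusted p = 0.0005), and the cytosolic folate enzyme gene Mthfd1, by 0.63 ± 0.10 (adjusted p = 0.00085), beside the lower values of Mthfd2 of the mitochondrial branch. In high-fat macrophages 0 of the 11 were called in limma, with 3 at an unadjusted p below 0.05, Got1 at 0.31 ± 0.09 (adjusted p = 0.17) and Shmt1 at -0.28 ± 0.09 (adjusted p = 0.26) among them. High-fat macrophages had the alanine aminotransferase gene Gpt2 lower, at -0.51 ± 0.07 (adjusted p = 0.00013), and the folate enzyme gene Aldh1l2 higher, at 0.57 ± 0.09 (adjusted p = 0.00079). The Aldh1l2 means, 4.7 in high-fat and 4.13 in chow macrophages, lay below the median gene mean of 5.28, with signal over background unknown. Psph, the last enzyme of serine synthesis, was higher by 0.23 ± 0.06 (adjusted p = 0.019), a call lost without any one of 3 arrays, and Mthfd1 by 0.27 ± 0.07 (adjusted p = 0.017), likewise lost without any one of 3.

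Of 16 cytosolic aminoacyl-tRNA synthetases, 3 fell with RBC in chow macrophages and 1 in high-fat macrophages. Of all genes, 12.7% and 1.08% were called in these contrasts. Cars fell by 0.53 ± 0.09 in chow macrophages (adjusted p = 0.002), Yars by 0.33 ± 0.08 (adjusted p = 0.019) and Rars by 0.28 ± 0.08 (adjusted p = 0.037). The call for Yars was lost without replicate 1 of chow macrophages with high-fat RBC or unexposed chow replicate 2, and that for Rars without any one of 7 arrays. In high-fat macrophages Yars fell by 0.40 ± 0.08 (adjusted p = 0.037), a call lost without any one of 11 arrays and in a fit to the high-fat macrophage arrays alone (0.15). Hars gave 0.22 ± 0.09 there (adjusted p = 0.37). High-fat macrophages averaged over RBC conditions had Farsb and Vars higher and Cars, Tars and Mars1 lower, each by 0.27 or less, and the calls for Vars and Tars were lost without any one of 4 and 7 arrays.

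The count of lower list genes on exposure in high-fat macrophages fell from 2 to 1 without any one of 10 arrays and to 0 without replicate 2 of those with chow RBC. Without unexposed high-fat replicate 2 the count of higher genes there was 3. The count of higher genes in chow macrophages fell from 4 to 2 without unexposed chow replicate 1.

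**Figure D3:**
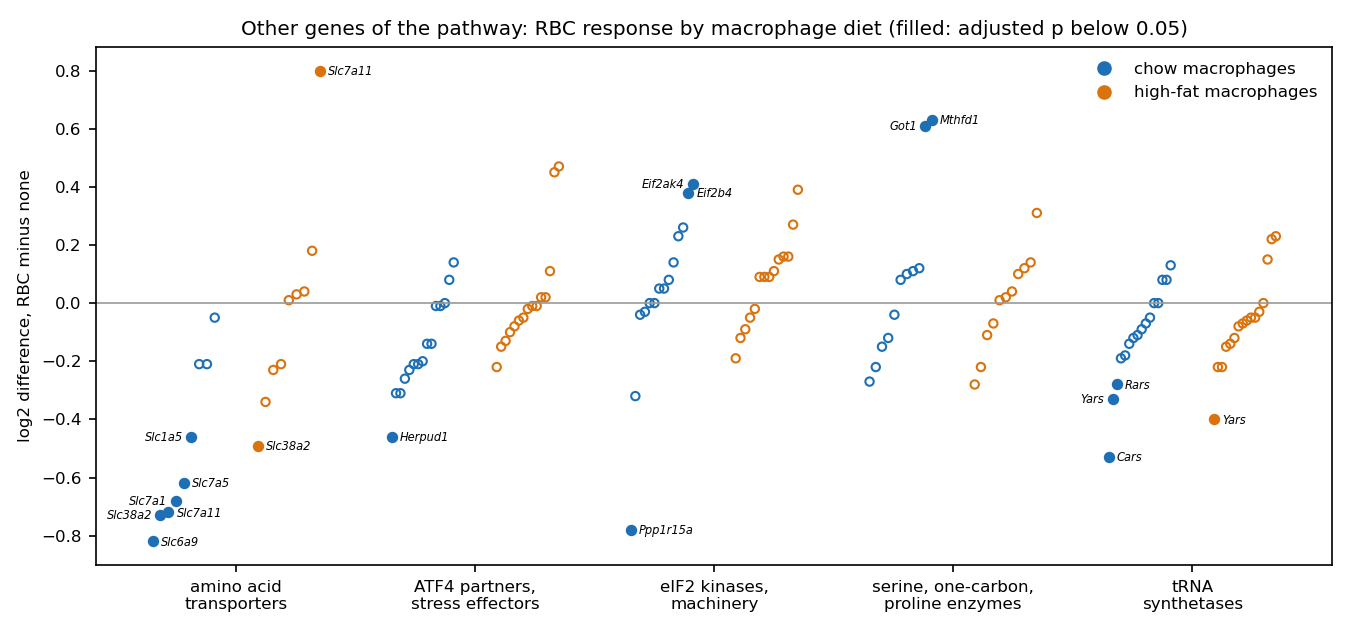
Log2 difference between macrophages with RBC and without (vertical axis) for the 65 other pathway genes in 5 lists, in chow and in high-fat macrophages; each point is a gene, sorted by value, and filled points are called at an adjusted p below 0.05. The 6 called transporter genes lie between -0.82 and -0.46 in chow macrophages, while Slc7a11 is at 0.80 in high-fat macrophages.

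How alike the 10 profiles were was described by Pearson's r over the 12 arrays, which share their groups, so that r mostly reflects differences between groups. Over the 45 pairs r had a median of 0.78 and ran from -0.73 for Ddit3 and Psat1 to 0.98 for Trib3 and Nupr1, with 14 pairs below 0. Against the mean of the other members, r was 0.86 to 0.96 for Asns, Mthfd2, Trib3, Sesn2, Nupr1, Chac1 and Atf4. It was 0.65 for Ddit3, and -0.27 and -0.26 for Psat1 and Phgdh. Asns, Mthfd2, Nupr1, Trib3 and Sesn2 were known beforehand for differences on exposure on these arrays, so likeness among them is in part built in. Psat1 and Phgdh were each most like the other (r = 0.70). Of all other genes, the mean profile of the 10 was most like those of Slc7a1 (0.972), the phosphatidylserine receptor gene Timd4 (0.972), Osbpl3 (0.969), Myo10 (0.969) and the adaptor gene Myd88 (0.967). The most opposite profiles were those of the macrophage growth factor gene Csf1 (-0.984), Nckap1 (-0.979), Ltbp2 (-0.979), Ankrd1 (-0.979) and Pde7b (-0.976).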

How the data were processed

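Per the labels' protocols, RNA was taken on RNeasy columns, and the WTA-Ovation FFPE V2 and Encore biotin kits served for amplification and labelling. The authors deposited a log2 signal for each probe set on each array. The log2 scale follows from the range of the values; summarization and normalization are not given in the sources used here. Raw intensities and detection calls were not analysed here, and precision is limited by having 12 arrays, with signal over background unknown.

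Of 35556 probe sets with values, 21789 had 1 gene symbol, 1621 several and 12146 none in the probe table. Where a gene had several probe sets (999 genes), the one with the highest mean stood for it. All 19938 genes were tested with no low-signal filter, the 10 members included. With limma 3.58.1 (R 4.3.3; lmFit, eBayes), 6 group means were fitted to the 12 arrays, with residual df 6 and prior df 7.69. Calls were made below an adjusted p of 0.05, with Benjamini-Hochberg adjustment across the 19938 genes for each contrast.

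Members and lists were chosen with earlier results of these data known. All members are named. Of each pathway list up to 4 called genes per contrast were open to naming, by smallest p (the 2 of smallest p where fewer than 2 were called), with the 4 eIF2 kinases. Mars1 for macrophage diet, and Slc7a5 and Slc1a5 for exposure in chow macrophages, were named beyond this rule after their values were seen. Listed but not measured on a probe set of their own were Eif2s1, Gdf15, Pycr1, Aars and Dars. On simulated data with 200 changed genes, the macrophage diet test recovered 88% of changes of log2 0.5 and 99% of changes of 1. For RBC diet it recovered 75% and 100% averaged, 44% and 90% in chow macrophages and 38% and 92% in high-fat macrophages. For the difference between the macrophage diets it recovered 7% and 65%. In the data, 2, 0, 5 and 0 genes were called in these RBC diet contrasts. With so few changed genes the adjustment is stricter than with 200, so these shares can overstate what would be recovered. Alternatives were quantile normalization, removal of the genes of lowest mean, an intensity trend with robust eBayes, the replicate number as a block, the mean of probe sets, an adjusted p of 0.10, omission of each array in turn, and a fit restricted to the arrays compared.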

Additional observations from a re-analysis of the deposited data

Results flagged for a closer look

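For 8 of the 65 other pathway genes the response to RBC differed between high-fat and chow macrophages by the test of the difference itself (limma, adjusted p below 0.05), 6 in the positive and 2 in the negative direction (12.3%, against 5.67% of all genes). The lists that held these genes were chosen with earlier results of these data known, so the shares are a description. Slc7a11 had the largest difference, 1.53 ± 0.13 (adjusted p = 9.4e-06). Herpud1 gave 0.91 ± 0.16 (adjusted p = 0.0034), with -0.46 ± 0.11 in chow and 0.45 ± 0.11 in high-fat macrophages, the latter not called (adjusted p = 0.084; 0.28 without unexposed high-fat replicate 1, and 0.62 and called without replicate 2). The differences of Slc7a11 and Herpud1 between the responses were called whichever array was left out. The double-stranded RNA sensor gene Eif2ak2 gave 0.71 ± 0.16 (adjusted p = 0.019), a call lost without replicate 1 of unexposed chow (0.098) or unexposed high-fat macrophages (0.071). The transporter gene Slc7a5 gave 0.66 ± 0.14 (adjusted p = 0.01), lost without unexposed chow replicate 2 (0.059). The amino acid sensor gene Eif2ak4 gave -0.60 ± 0.13 (adjusted p = 0.012), lost without unexposed chow replicate 1 (0.055). Ppp1r15a gave 0.66 ± 0.18 (adjusted p = 0.045), lost without any one of 9 arrays (0.066 to 0.16). Mthfd1 gave -0.59 ± 0.14 (adjusted p = 0.025), lost without any one of 5 arrays (0.061 to 0.12). Slc1a5 gave 0.47 ± 0.12 (adjusted p = 0.036), lost without any one of 11 arrays (0.052 to 0.12). The count of positive genes was 3 without unexposed chow replicate 2 or unexposed high-fat replicate 1, and that of negative genes was 0 without unexposed chow replicate 1.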

How the results depend on the processing

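In no setting did the median of all genes lie farther than 0.037 from 0. Quantile normalization moved the members' median difference on exposure to -0.53 and that of the difference between responses to 0.42; leaving out 1 array gave -0.54 to -0.41 and 0.32 to 0.44. Members lower in high-fat macrophages numbered 7 to 8 and higher 0 to 2 with 1 array left out. Members called for RBC diet, averaged, within either macrophage diet or as a difference, numbered 0 in every setting run. With a replicate block, either across the 6 groups or separately for the macrophage diets, Phgdh was also called (adjusted p = 0.046 and 0.039), so that 2 members were higher. Deviations of same-numbered arrays correlated from -0.23 to 0.34 over 15 pairs of groups, so the numbers were not taken to pair the samples. For the other pathway genes, exposure in high-fat macrophages gave 3 higher with the intensity trend or at an adjusted p of 0.10, 1 lower with the block within macrophage diet and 0 lower in the fit to the compared arrays only. With 1 array left out, higher and lower counts were 2 to 5 and 8 to 13 for exposure in chow macrophages, 1 to 3 and 0 to 2 in high-fat macrophages, 3 to 8 and 0 to 2 for the difference between responses, and 8 to 11 and 9 to 18 for macrophage diet. Signs turned for small uncalled values: with 1 array left out, that of Eif2ak1 ran from -0.26 to 0.09 for the macrophage diet gap without RBC, from -0.03 to 0.32 for exposure in high-fat macrophages and from -0.18 to 0.18 for the difference between responses, and that of Eif2ak2 from -0.10 to 0.10 for the gap with RBC. The cause of these shifts was not tested. Fits to the compared arrays only give no separate value for contrasts that use all 12.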
